A study of Homo sapiens with 16 samples.

Results

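The glycolysis and hypoxia response genes followed here are 37 genes named by symbol: 17 glycolytic enzymes, 18 other genes that respond to low oxygen, and the HIF alpha subunits HIF1A and EPAS1. The deposited count table has 56832 gene names, and each of the 37 symbols matched 1 row. All 37 passed the filter on low counts, which kept 23100 genes in all. The 18 other hypoxia targets are 4 transporters, 3 regulators of glycolysis and pyruvate use, and 11 further targets.

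The study measured RNA in 2 human small cell lung cancer lines, H69M and H69, each carrying a short hairpin RNA against EIF6 (sheIF6) or a control hairpin (shNTC). Small cell lung cancer is a fast-growing tumour that usually has neuroendocrine features. From each of the 4 cell populations, RNA was taken from sucrose fractions holding polysomes (polysomal RNA) and from the cell lysate (cytoplasmic RNA). Line, hairpin and fraction gave 8 groups of 2 libraries, 16 libraries in all: H69M sheIF6 and H69M shNTC, H69 sheIF6 and H69 shNTC, each as polysomal and cytoplasmic RNA. All populations were grown in the same serum-containing medium, and no label names a low-oxygen treatment. The labels do not say how H69M relates to H69, or whether the 2 libraries of a group came from separate cultures, and the p-values therefore reflect the spread among these libraries alone, which may be technical. The labels name 1 hairpin against EIF6 and do not say whether a population is a clone.

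Glycolysis turns glucose into pyruvate in the cytosol, and lactate dehydrogenase turns pyruvate into lactate. When oxygen is low, HIF alpha subunits escape prolyl hydroxylation and VHL-dependent degradation, pair with ARNT and bind short DNA elements near genes for glucose uptake, glycolysis, acid export and blood vessel growth. Most glycolytic enzymes are therefore both housekeeping genes and hypoxia targets, whereas genes such as CA9, VEGFA and ADM are known mainly for their response to low oxygen. EIF6, the knockdown target, is an initiation factor that sits on free large ribosomal subunits and blocks their premature pairing with small ones. A message carried by many ribosomes sediments with polysomes, and polysomal over cytoplasmic RNA is called polysome loading below.

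The core of the element that HIF binds is ACGTG or GCGTG, and promoters of 4 members are shown because these members mark the main patterns: GAPDH the most abundant enzyme, LDHA an enzyme that differed between the lines, and CA9 and BNIP3 hypoxia targets that varied between libraries or lines. Each line below holds the 250 bases before the first listed RefSeq transcription start of a gene (GRCh38.p14), 5′ to 3′ on the gene's strand. For all 4 this start lies inside the annotated gene. The annotation begins at chr12:6533927 for GAPDH, chr11:18394388 for LDHA, chr9:35673856 for CA9 and, on the minus strand, chr10:131982013 for BNIP3. The GAPDH window lies wholly inside the gene and may therefore not be its main promoter. The other windows lie partly inside, at the end next to the start. Capitals mark ACGTG on either strand, which reads as CACGT on the opposite one. The windows are chr12:6535014-6535263 (plus strand), chr11:18394313-18394562 (plus), chr9:35673678-35673927 (plus) and chr10:131981924-131982173 (minus).
GAPDH: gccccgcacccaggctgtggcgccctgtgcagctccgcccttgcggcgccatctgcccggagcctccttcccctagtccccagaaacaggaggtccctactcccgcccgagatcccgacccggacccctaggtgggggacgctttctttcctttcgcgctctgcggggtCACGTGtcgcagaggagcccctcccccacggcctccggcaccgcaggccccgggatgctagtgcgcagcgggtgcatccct
LDHA: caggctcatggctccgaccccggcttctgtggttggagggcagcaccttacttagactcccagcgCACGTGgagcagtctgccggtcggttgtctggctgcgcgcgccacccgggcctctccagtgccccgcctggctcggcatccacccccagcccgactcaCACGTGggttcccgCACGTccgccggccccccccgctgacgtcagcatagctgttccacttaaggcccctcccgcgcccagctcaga
CA9: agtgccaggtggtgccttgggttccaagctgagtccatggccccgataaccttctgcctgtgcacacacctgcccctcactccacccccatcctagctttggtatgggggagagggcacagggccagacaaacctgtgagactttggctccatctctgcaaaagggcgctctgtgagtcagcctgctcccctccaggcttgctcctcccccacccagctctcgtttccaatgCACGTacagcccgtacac
BNIP3: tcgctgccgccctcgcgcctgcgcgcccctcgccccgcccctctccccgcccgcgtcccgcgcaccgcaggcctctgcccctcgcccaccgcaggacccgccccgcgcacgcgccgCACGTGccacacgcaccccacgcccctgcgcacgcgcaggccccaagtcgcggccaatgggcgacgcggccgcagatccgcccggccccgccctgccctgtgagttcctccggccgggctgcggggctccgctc
The CA9 match lies 18 bases before the start, and LDHA has 3 such stretches, of which 2 are the palindrome CACGTG and count on both strands. The table gave promoters for 32 of the 37 members, all but SLC2A3, SLC16A1, VEGFA, NDRG1 and BNIP3L, with several starts for some genes. ACGTG was found in 14 of 37 promoters of the enzymes (37.8%) and in 7 of 19 of the other hypoxia targets (36.8%), against 18.5% of all 35116 promoters. GCGTG was found in 27.0% and 36.8% of them, against 32.2% of all promoters. The HIF alpha subunits had 3 promoters, with ACGTG in 0 and GCGTG in 2. These matches describe the letters in the windows, and binding was not measured.

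Before the results, several libraries need description. Library totals ran from 36005326 to 87269772 counts. EIF6 RNA in polysomal libraries was at 86.3 and 136 CPM in H69M sheIF6, against 323 and 202 in H69M shNTC, and at 234 and 219.8 in H69 sheIF6, against 424 and 389 in H69 shNTC. In cytoplasmic libraries it was at 161 and 96.3 in H69M sheIF6, against 204 and 165 in H69M shNTC, and at 65.0 and 67.7 in H69 sheIF6, against 116 and 112 in H69 shNTC. CPM are counts scaled to a common library total after each total was multiplied by its TMM factor, which sets libraries level at their typical gene. Both knockdown libraries lay below both controls in each of the 4 settings, and none of the 4 differences passed after adjustment in edgeR (log2 -1.24 and -0.52 in H69M, -0.84 and -0.78 in H69, polysomal and cytoplasmic in turn).

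The line labels were checked against 7 neuroendocrine markers and 6 non-neuroendocrine ones, each list summed. The neuroendocrine sum ran from 10.3 to 394 CPM in the 8 H69M libraries and from 1564 to 3449 CPM in the 8 H69 libraries. The non-neuroendocrine sum ran from 3456 to 6391 CPM in H69M and from 79.0 to 253 CPM in H69. The lines therefore stand apart on both lists, and H69M does not show the neuroendocrine markers that usually define small cell lung cancer at the H69 level. In H69M the neuroendocrine sum was higher in each library numbered 2 than in its partner numbered 1: 239.7 against 51.6 CPM in sheIF6 polysomal, 394 against 27.6 in shNTC polysomal, 53.7 against 18.4 in sheIF6 cytoplasmic and 49.3 against 10.3 in shNTC cytoplasmic RNA. In H69 the non-neuroendocrine sum was higher in each library numbered 1 than in its partner numbered 2: 193 against 79.0 CPM in sheIF6 polysomal, 253 against 95.9 in shNTC polysomal, 149.6 against 86.1 in sheIF6 cytoplasmic and 203 against 90.5 in shNTC cytoplasmic RNA. Most of this H69 sum was CD44, at 191 and 77.9 CPM in sheIF6 polysomal and 253 and 94.0 in shNTC polysomal RNA. In cytoplasmic RNA CD44 was at 149 and 85.2 CPM in sheIF6 and 183 and 90.4 in shNTC. VIM was at 0 and 1.66 CPM in shNTC polysomal but 17.9 and 0.12 CPM in shNTC cytoplasmic RNA. The H69 gap thus mainly describes CD44. The part of these marker levels in the results below was not tested.

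Hypoxia targets stood apart between the libraries of 1 group. In H69M the 18 other hypoxia targets were higher in the library numbered 1 than in the library numbered 2 by a median log2 of 0.67 in sheIF6 polysomal, 1.23 in shNTC polysomal, 0.83 in sheIF6 cytoplasmic and 0.77 in shNTC cytoplasmic RNA. In H69 the same medians were 0.35, 0.89, -0.04 and 0.87. The 17 enzymes also had gaps, with medians in the same order of -0.39, 0.42, 0.68 and 0.14 in H69M. In H69 the enzymes' medians were 0.32, 0.48, -0.04 and 0.25. Over all genes tested the median gap was near 0 in each group.

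In H69M shNTC polysomal RNA, 11 of the 18 (61.1%) were at least 2-fold higher in library 1, against 13.6% of all genes tested. CA9, a carbonic anhydrase that acidifies the outside of hypoxic cells, was at 10.5 and 2.19 CPM in libraries 1 and 2 of H69M sheIF6 polysomal RNA and at 196 and 1.56 CPM in H69M shNTC polysomal RNA. In cytoplasmic RNA it was at 8.97 and 1.30 CPM in H69M sheIF6 and at 23.7 and 1.27 CPM in H69M shNTC. Library 1 of H69M shNTC polysomal RNA was thus the highest of all 16 for CA9, and its partner was among the lowest. VEGFA, a growth factor for blood vessels, was at 136 and 38.3 CPM and 451 and 71.2 CPM in the same polysomal pairs and at 115 and 53.9 CPM and 491 and 79.1 CPM in the cytoplasmic ones. The controls numbered 1 were again the highest of the 16. Since these are counts from bulk cultures, fewer responding cells and less RNA per cell cannot be told apart. The results below are given with these libraries, and without them wherever that changes a result.

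**Figure D1:**
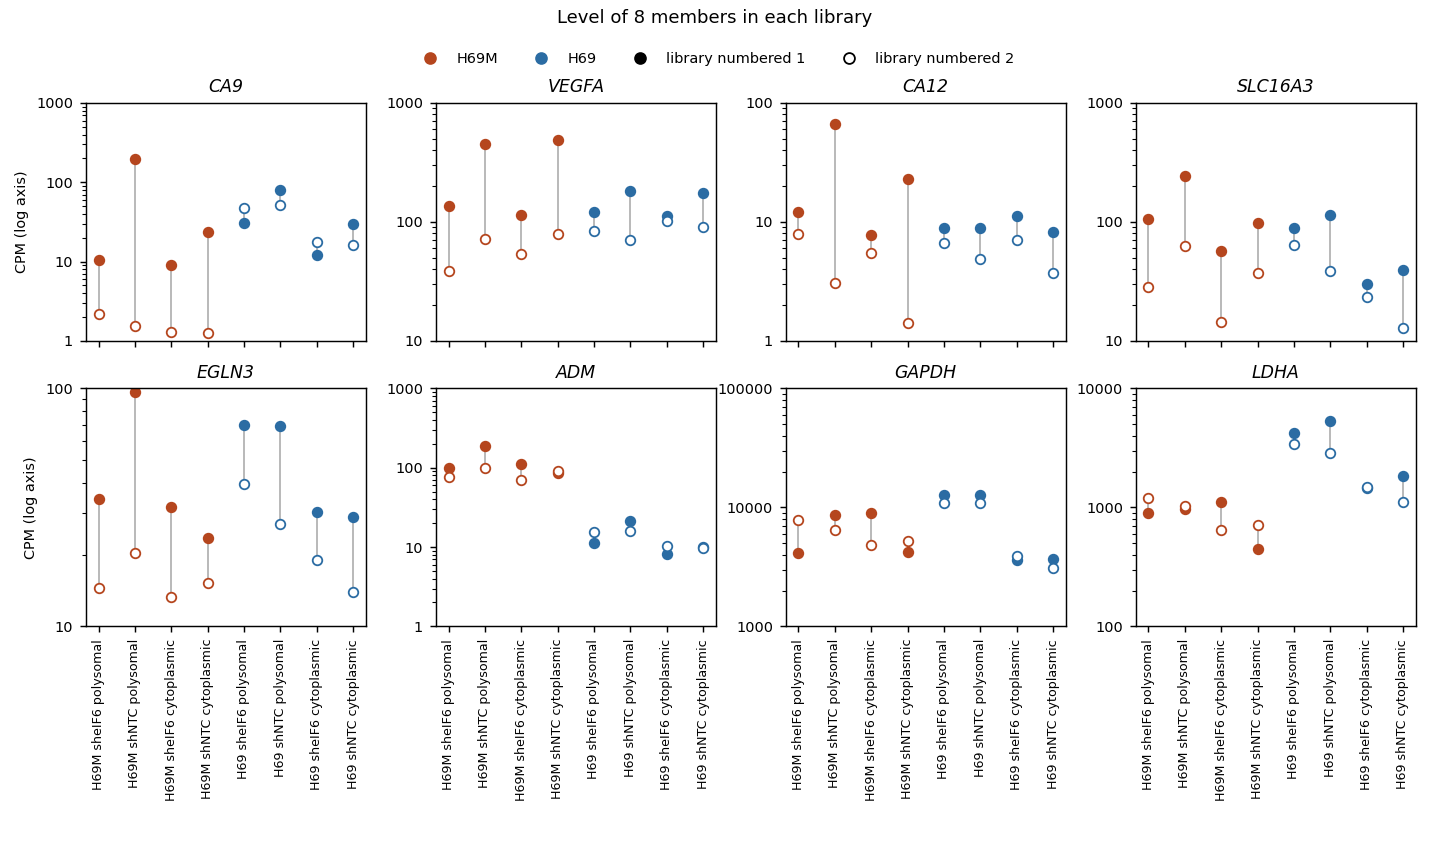
Level of 8 members in each of the 16 libraries, in CPM on a log axis, with H69M groups in orange and H69 groups in blue; filled points are libraries numbered 1, open points libraries numbered 2, and a grey line joins the pair of a group. CA9, VEGFA and SLC16A3 spread widely within H69M groups, and CA12 within the H69M shNTC groups. In H69 the 4 polysomal libraries lie above the 4 cytoplasmic ones for GAPDH and LDHA.

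The enzymes were the more abundant group. Over all 16 libraries the mean level of an enzyme was 656 CPM at the median (range 20.0 to 6981), against 61.2 CPM (3.46 to 188) for the other hypoxia targets, with median exonic lengths of 5276 and 6110.5 bases. Per kilobase of all annotated exons, which can exceed the transcripts expressed, GAPDH led with 2342 CPM per kb. ALDOA followed with 537, ENO1 with 455 and TPI1 with 386. The highest of the other hypoxia targets per kilobase was the glucose transporter SLC2A1 with 39.8 CPM per kb, and the lowest member was PDK1 with 0.934. GAPDH has 62 pseudogenes named after it in the annotation, BNIP3 has 39 and PGAM1 has 13, and 24 of the 37 members share exonic bases with another gene, so their counts may hold reads of a copy or neighbour.

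The first comparison asks which members are carried on polysomes. In H69 most glycolytic enzymes were higher in polysomal than in cytoplasmic RNA, and 0 of the other hypoxia targets passed the test in either line. This holds for the main fit, which does not pair libraries. Some of the other targets passed in a fit that pairs same-numbered libraries, given below. In H69 sheIF6 11 of the 17 enzymes were higher in polysomal than in cytoplasmic RNA past the adjusted limit of 0.05 in edgeR's quasi-likelihood test, and in H69 shNTC 12 of 17, where 5.66% and 6.63% of all genes tested were higher. In H69M sheIF6 1 enzyme passed (HK1) and in H69M shNTC 2 (HK1 and GPI), where 1.91% and 2.16% of all genes were higher. Of the 18 other hypoxia targets 0 passed in any of the 4 settings, and 3, 4, 2 and 3 of them had an unadjusted p under 0.05 in H69M sheIF6, H69M shNTC, H69 sheIF6 and H69 shNTC. DESeq2 called 2, 2, 1 and 3 of them in the same order. No member was lower in polysomal RNA past the limit, where 2.26%, 2.54%, 4% and 5.2% of all genes were lower, which makes 4.17%, 4.7%, 9.66% and 11.8% called in either direction. Both polysomal libraries lay above both cytoplasmic ones for 8, 14, 16 and 16 of the 17 enzymes and for 4, 5, 11 and 6 of the 18 other targets in the same order, against 21.2%, 20.8%, 25.4% and 23% of all genes.

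The median log2 loading of the 17 enzymes was 0.48 in H69M sheIF6, 0.87 in H69M shNTC, 1.37 in H69 sheIF6 and 1.47 in H69 shNTC. For the 18 other targets it was 0.23, 0.65, 0.50 and 0.60, and over all genes -0.02, 0.00, -0.11 and -0.14, in the same order. In H69M sheIF6 leaving out cytoplasmic replicate 1 gave the enzymes a median of 0.84, and leaving out cytoplasmic replicate 2 gave 0.20. Abundant genes were called more often than genes as a whole. Among the 2358 genes averaging at least 100 CPM, 28.1% were higher in H69 shNTC polysomal RNA with a median of 0.48, against 11 of the 13 enzymes of that level with a median of 1.57. In H69 sheIF6 it was 25.1% of those genes and 11 of 13 enzymes. In H69M these shares were lower: 8.91% and 0 of 13 enzymes in H69M sheIF6, and 9.92% and 1 of 13 in H69M shNTC. Only 2 of the other hypoxia targets, SLC2A1 and VEGFA, reach that level, so the remaining 16 cannot be set against genes as abundant as the enzymes.

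**Figure D2:**
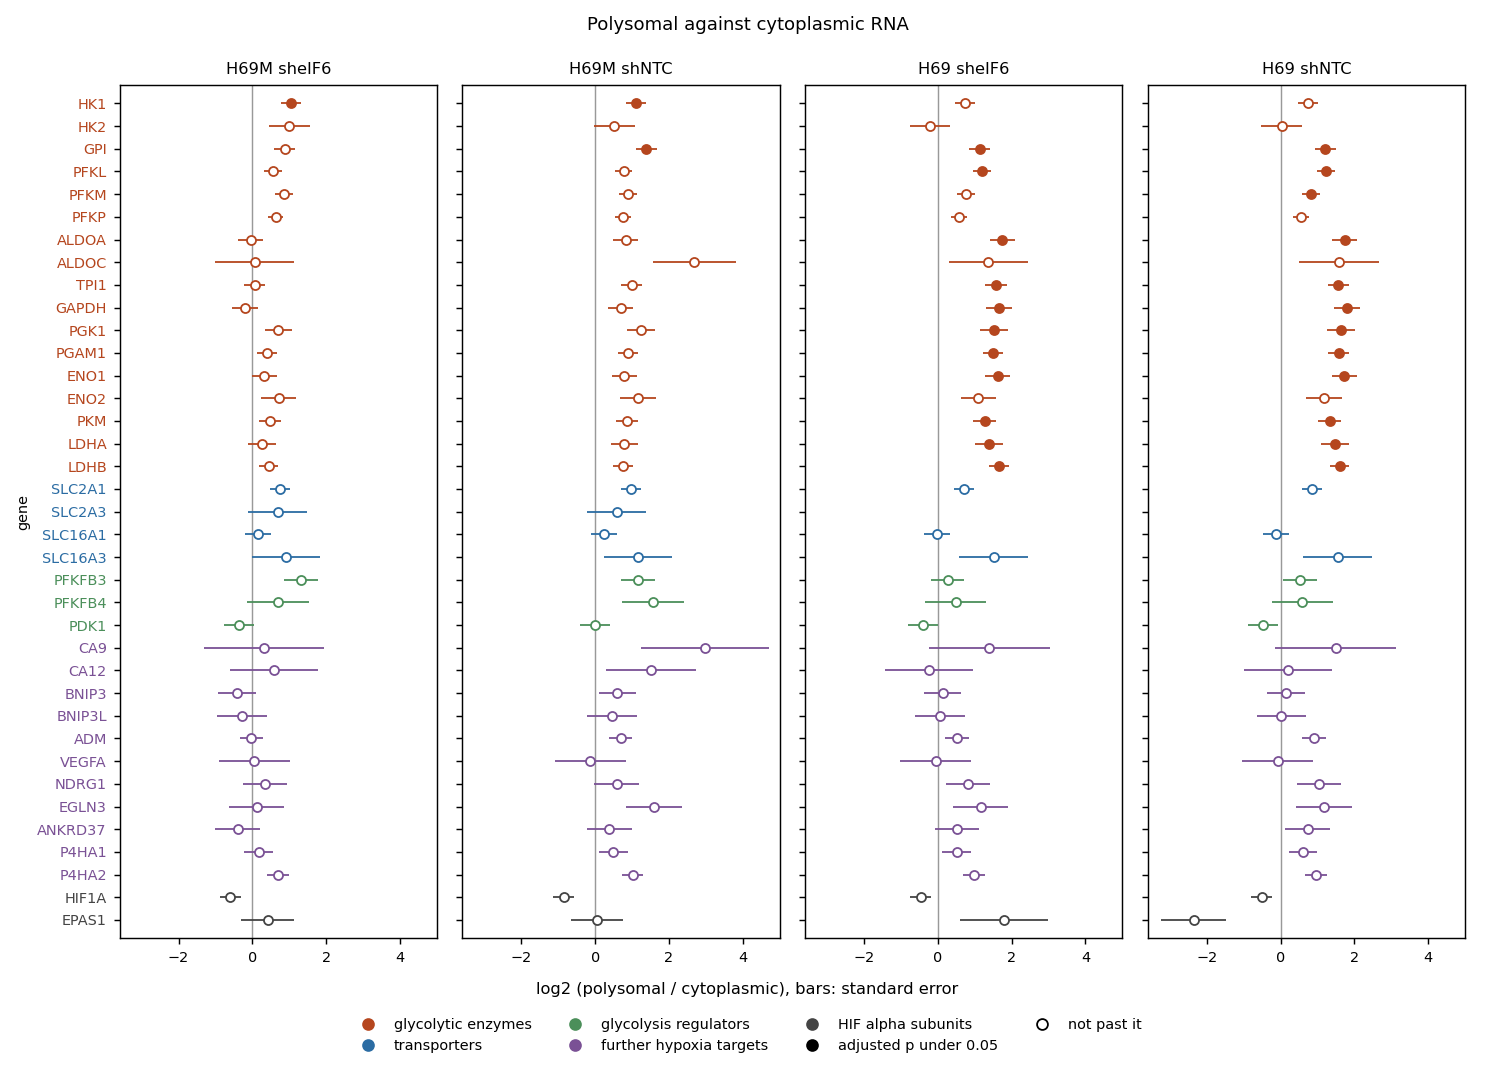
Log2 ratio of polysomal to cytoplasmic RNA for each member in 4 settings; bars are the standard error of the fit, filled points passed the adjusted limit of 0.05, and colours mark the role. SLC2A3 is left out in H69, where it had almost no counts. The enzymes at the top lie to the right of 0 in H69, with filled points for 11 and 12 of them, and closer to 0 in H69M sheIF6.

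GAPDH, which oxidises glyceraldehyde phosphate, had 12598 and 10795 CPM in H69 shNTC polysomal RNA, against 3648 and 3106 in cytoplasmic RNA (log2 1.79, SE 0.36, adjusted p = 0.00794). ALDOA, the aldolase that splits fructose bisphosphate, had 4266 and 3123 CPM, against 1252 and 961. ENO1, the main enolase, had 4985 and 3124 CPM, against 1381 and 1068. Both polysomal libraries lay above both cytoplasmic ones for these 3 genes, with log2 values of 1.74 for ALDOA and 1.73 for ENO1. PGK1, the first enzyme of the pathway to make ATP, had 2295 and 1311 CPM, against 701 and 465. LDHB, the lactate dehydrogenase subunit common in heart, had 1390.0 and 1088 CPM, against 431 and 388 (log2 1.60, SE 0.27, adjusted p = 0.00444, the smallest of the members). TPI1, which interconverts the triose phosphates, had 2017 and 1950.4 CPM, against 733 and 608. Again the groups did not overlap. PGAM1, a phosphoglycerate mutase, had 926 and 664 CPM, against 312 and 223. LDHA, the subunit that HIF induces, had 5306 and 2878 CPM, against 1838 and 1115. PKM, the last enzyme before pyruvate, had 2679.6 and 1717 CPM, against 940.1 and 812. The log2 values of PGK1, TPI1, PGAM1, LDHA and PKM were 1.63, 1.57, 1.57, 1.47 and 1.33.

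The remaining calls in H69 shNTC were PFKL (log2 1.24), GPI (1.21) and PFKM (0.84), enzymes of the upper part of the pathway. Other isoforms did not pass: PFKP, the platelet-type phosphofructokinase, had log2 0.55, HK1 0.75, HK2, the inducible hexokinase, 0.03, and the neuronal isoforms ENO2 and ALDOC 1.17 and 1.59. HK2 was at 100.4 and 45.1 CPM in polysomal and 89.5 and 53.4 CPM in cytoplasmic RNA, and was the 1 enzyme whose groups overlapped. All 12 calls in H69 shNTC were lost when H69 shNTC cytoplasmic replicate 2 was left out (GAPDH then log2 1.68, adjusted p = 0.0829). Without H69 shNTC cytoplasmic replicate 1 10 of the 12 were lost (GAPDH 1.92), without H69 shNTC polysomal replicate 1 9 were (GAPDH 1.68), and without H69 shNTC polysomal replicate 2 SLC2A1 and P4HA2 passed too, making 14. PFKM also missed it without H69 sheIF6 cytoplasmic replicate 1 or 2 (adjusted p = 0.0707 and 0.0705) or H69M shNTC cytoplasmic replicate 1 or 2 (0.0523 and 0.0531), with log2 0.84 in each.

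In H69 sheIF6 the called enzymes were those of H69 shNTC other than PFKM. GAPDH had 12802 and 10886 CPM in polysomal RNA, against 3615 and 3935 in cytoplasmic RNA (log2 1.65). LDHA had 4214 and 3435 CPM, against 1446 and 1487 (log2 1.38). LDHB had 1294 and 1159.9 CPM, against 389 and 391 (log2 1.65, SE 0.27, adjusted p = 0.00533). For 16 of the 17 enzymes both polysomal libraries lay above both cytoplasmic ones, where 25.4% of all genes tested did so. All 11 calls were lost without H69 sheIF6 cytoplasmic replicate 1 or 2 (GAPDH then log2 1.59 and 1.72), and 10 of them, all but LDHB, without H69 sheIF6 polysomal replicate 1 (GAPDH 1.53).

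In H69M the calls were HK1 and GPI. HK1, the constitutive hexokinase, had 86.5 and 116 CPM in H69M sheIF6 polysomal RNA, against 52.5 and 45.2 in cytoplasmic RNA (log2 1.05, SE 0.27, adjusted p = 0.0487). In H69M shNTC it had 149.5 and 140.4 CPM in polysomal RNA, against 77.5 and 58.3 (log2 1.09, SE 0.27, adjusted p = 0.0396). GPI, which turns glucose phosphate into fructose phosphate, had 890.0 and 569 CPM in H69M shNTC polysomal RNA, against 281 and 275 (log2 1.39, SE 0.28, adjusted p = 0.0189). The groups did not overlap for HK1 and GPI. In H69M shNTC both calls were lost without H69M shNTC cytoplasmic replicate 1 (HK1 1.32, GPI 1.41), cytoplasmic replicate 2 (0.91 and 1.38) or polysomal replicate 1 (1.06 and 1.04), and HK1 also without polysomal replicate 2 (1.14). HK1 also missed the limit in 4 fits without an H69 cytoplasmic library (log2 1.10, adjusted p 0.0617 to 0.0719). In H69M sheIF6 the HK1 call was lost in 14 of the 16 fits that left out a library, with an adjusted p of 0.249 at the highest. GAPDH was at 4117 and 7879.8 CPM in H69M sheIF6 polysomal RNA and at 8921 and 4829.5 in cytoplasmic RNA (log2 -0.20, adjusted p = 0.843), so these groups overlapped. ALDOA and TPI1 overlapped there too, with log2 -0.05 and 0.06.

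Libraries with the same number deviated together within each line, and a fit with the replicate number as a block within each line called more members. With the block, loading passed for 6 members in H69M sheIF6 (4 enzymes, SLC2A1 and PFKFB3), 15 in H69M shNTC (10 enzymes and 5 other targets), 17 in H69 sheIF6 (14 and 3) and 22 in H69 shNTC (14 enzymes and 6 other targets higher, SLC2A3 and EPAS1 lower). Of all genes 9.35%, 11.1%, 15.6% and 18.9% passed. The lower calls in H69 shNTC rest on few counts. SLC2A3 had 0 and 0 in polysomal and 19 and 0 in cytoplasmic libraries, and EPAS1 had 2 and 12 against 65 and 28. DESeq2 called 6, 12, 15 and 18 members in the same order, against 10.6%, 12.2%, 15.7% and 18.6% of all genes. The difference between enzymes and other targets itself was not tested.

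Loading of the other hypoxia targets varied by gene. SLC2A1, the main glucose importer, was at 478 and 503 CPM in H69M shNTC polysomal RNA, against 245 and 256 in cytoplasmic RNA (log2 0.97, SE 0.27, adjusted p = 0.0606; with the block 0.016). P4HA2, a collagen prolyl hydroxylase subunit, was at 242 and 186 CPM, against 101 and 111 (log2 1.02; with the block 0.0284). Both genes had polysomal libraries above the cytoplasmic ones in all 4 settings. PDK1, a kinase that inhibits pyruvate dehydrogenase, had values below 0 in each setting (log2 -0.36, -0.01, -0.40 and -0.46 in H69M sheIF6, H69M shNTC, H69 sheIF6 and H69 shNTC). VEGFA lay near 0 in each (0.05, -0.13, -0.06 and -0.08), as did SLC16A1, a monocarboxylate transporter (0.15, 0.24, -0.03 and -0.13). The median of the 18 in H69M shNTC was -0.12 without H69M shNTC polysomal replicate 1 and 1.14 without polysomal replicate 2. In H69M sheIF6 it was -0.35 without H69M sheIF6 polysomal replicate 1 and 0.82 without cytoplasmic replicate 1. In H69 sheIF6 it was 0.28 without H69 sheIF6 polysomal replicate 1, and in H69 shNTC 0.08 without H69 shNTC polysomal replicate 1 and 1.00 without polysomal replicate 2.

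Neither HIF alpha subunit passed for loading in edgeR. HIF1A, the widely expressed alpha subunit, was at 179 and 256 CPM in H69M sheIF6 polysomal RNA and 249 and 407 in cytoplasmic RNA, and at 344 and 279 and 575 and 544 CPM in H69M shNTC. In H69 sheIF6 it was at 110.2 and 85.3 CPM in polysomal and 137 and 133 in cytoplasmic RNA, and in H69 shNTC at 126 and 82.3 and 144 and 152. Polysomal libraries lay below the cytoplasmic ones in 3 of the 4 settings, all but H69M sheIF6, and none passed (log2 -0.59, -0.85, -0.47 and -0.51). EPAS1, which encodes HIF-2 alpha, was at 16.3 and 9.13 CPM in polysomal and 9.78 and 9.34 in cytoplasmic RNA of H69M sheIF6, and at 32.6 and 16.9 and 33.1 and 14.7 CPM in H69M shNTC (log2 0.41 and 0.05). In H69 it was at 0.0505 and 0.244 CPM in polysomal and 0 and 0.0815 in cytoplasmic RNA of sheIF6 (2 and 10 counts, against 0 and 4), and at 0.0526 and 0.297 and 1.27 and 0.560 CPM in shNTC (log2 -2.35, adjusted p = 0.102; with the block 0.0411), on at most 65 counts a library.

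Scaling bears on these levels, because loading is relative to the typical gene of a library. With library totals alone in place of TMM factors, the median of all genes moved to -0.17 in H69M sheIF6, -0.25 in H69M shNTC, -0.44 in H69 sheIF6 and -0.49 in H69 shNTC. The enzymes then lay 0.49, 0.86, 1.48 and 1.60 above that median, against 0.50, 0.87, 1.48 and 1.61 with TMM. The share of calls that were higher moved to 24.4%, 17.3%, 27.2% and 26.2%, from 45.9%, 45.9%, 58.6% and 56.0% with TMM. Members called then numbered 0, 2 (GPI higher and HIF1A lower), 10 and 11.

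Summed over the 17 enzymes, glycolytic messages took 3.21 and 2.93% of all counts in the libraries of H69 sheIF6 polysomal RNA, against 1.31 and 1.39% in cytoplasmic RNA. In H69 shNTC it was 3.41 and 2.79% in polysomal RNA, against 1.41 and 1.20% in cytoplasmic RNA. Each H69 polysomal library lay above every H69 cytoplasmic one. In H69M sheIF6 it was 1.43 and 1.86% in polysomal and 2.03 and 1.29% in cytoplasmic RNA, and in H69M shNTC 2.28 and 1.54% and 1.28 and 1.29%. The H69M sheIF6 shares overlapped between fractions, and those of H69M shNTC did not. The 18 other targets took between 0.0708 and 0.252% of counts in any library.

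**Figure D3:**
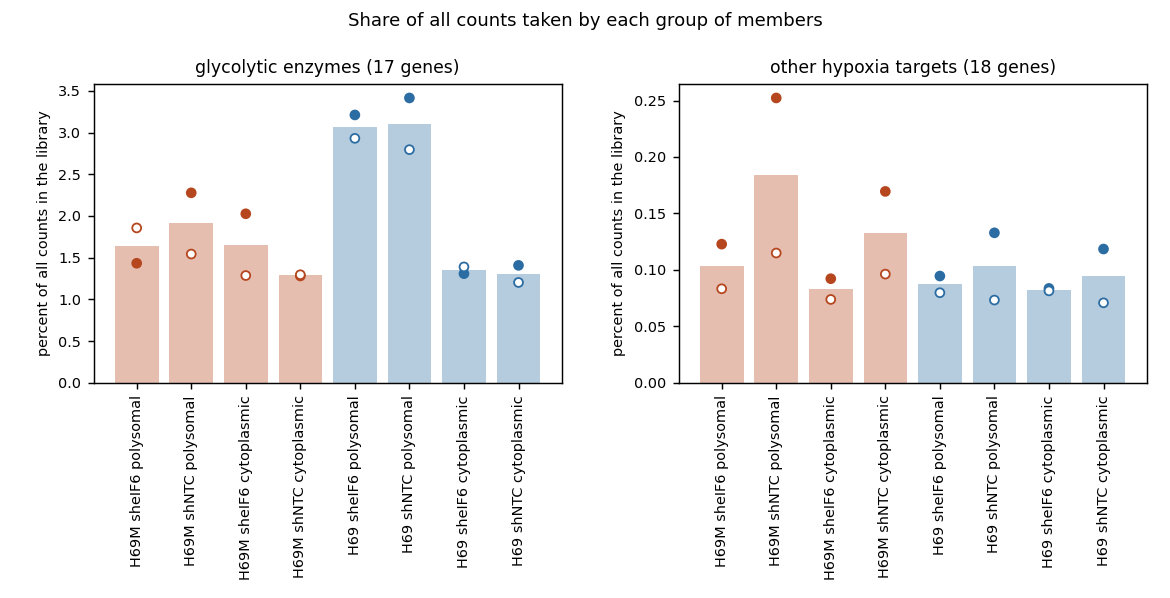
Percent of all counts in a library that fell on the 17 glycolytic enzymes (left) and on the 18 other hypoxia targets (right); bars are the mean of 2 libraries, filled points libraries numbered 1 and open points libraries numbered 2. The enzymes take 2.79 to 3.41% in H69 polysomal libraries and 1.20 to 1.41% in H69 cytoplasmic ones.

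Other pathways of glucose carbon, from lists written for this work with earlier results known, were in part also higher in H69 polysomal RNA, where 6.63% of all genes and 28.1% of those averaging at least 100 CPM were higher and 5.2% and 3.31% lower in shNTC. In H69 shNTC 8 of 16 genes of the tricarboxylic acid cycle, 3 of 7 of the pentose phosphate pathway and 3 of 12 for the fate of pyruvate were higher in polysomal RNA, and 0 lower. The cycle genes SUCLG1 and IDH3G were at 133 and 129 and at 106 and 99.5 CPM in polysomal RNA, against 35.4 and 39.9 and 29.7 and 30.8 CPM. TALDO1 and TKT of the pentose phosphate pathway were at 648 and 564 and at 639.5 and 435 CPM, against 196 and 182 and 208 and 179 CPM. Both polysomal libraries lay above both cytoplasmic ones for these 4 genes, and each call was lost in at least 1 fit that left out a library. Of 14 HIF pathway regulators 0 were higher and 1 lower (VHL, the ligase subunit that marks HIF for degradation, log2 -1.01), of 26 further HIF targets tested 0 passed, of 5 gluconeogenesis genes 1 was higher (G6PC3) and of 11 other glycolysis isoforms 0 passed. In H69 sheIF6 7 of 16 cycle genes and 2 of 7 pentose phosphate genes were higher, where 1307 of the 23100 genes tested were higher and 925 lower. H69M had 1 of 16 cycle genes higher (OGDH) and 1 lower (SDHD) in sheIF6, and 2 of 16 higher (SDHA and OGDH) in shNTC. Of all genes tested, 442 were higher and 521 lower in H69M sheIF6, and 498 and 587 in H69M shNTC.

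Whether loading differs between the lines was tested directly in the shNTC libraries. The difference, H69M minus H69, had a median log2 of -0.46 over the 17 enzymes, 0.40 over the 18 other targets and 0.11 over all genes. No gene of the 23100 passed in edgeR (0%), where 2127 had an unadjusted p under 0.05, 3 of them members. DESeq2 called 0.84% of genes and 0 members, and the fit with the block 0.039% and 0. For GAPDH the difference was -1.10 (SE 0.49) and for ENO1 -0.94 (SE 0.47). The larger number of calls in H69 than in H69M is therefore not shown to be a difference between the lines.

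The second comparison asks what EIF6 knockdown did to the members. No member passed in either line or fraction in edgeR. In H69M polysomal RNA 0 of 37 passed, with 0.0649% of all genes called, and in H69M cytoplasmic RNA 0 of 37 with 0.156%. In H69 it was 0 of 37 with 0.00433% in polysomal and 0% in cytoplasmic RNA. In the same order 4, 4, 0 and 2 members had an unadjusted p under 0.05. A fit with the replicate block also called 0 members in each, where 0.879%, 1.16%, 0.108% and 0.00433% of genes passed. DESeq2 called 1 member, EPAS1 in H69 cytoplasmic RNA, where it called 0.338% of genes.

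In H69M polysomal RNA 32 of the 37 members had negative values, with medians of -0.22 over the enzymes, -0.83 over the other targets and -0.01 over all genes. CA9 gave the largest value: its 10.5 and 2.19 CPM in sheIF6 stood against 196 and 1.56 CPM in shNTC, a log2 of -3.96 (SE 1.81, adjusted p = 0.622). BNIP3, a mitophagy receptor, was at 19.4 and 12.1 CPM, against 55.8 and 18 (log2 -1.23, SE 0.52, adjusted p = 0.564). SLC2A1 was at 266 and 298 CPM, against 478 and 503 (log2 -0.80, SE 0.27, adjusted p = 0.43). Both sheIF6 libraries lay below both shNTC libraries for SLC2A1, but not for CA9 or BNIP3, where the control numbered 2 overlapped the knockdown. This held for 9 members in all, HK1, PFKP, SLC2A1, SLC16A1, ADM, P4HA1, P4HA2, HIF1A and EPAS1, which is 24.3% of the 37 against 16.7% of all genes, and 0 members lay above.

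The median depended on which control was used. Without H69M shNTC polysomal replicate 1 the median of the other targets was 0.28, and without replicate 2 it was -1.22. The enzymes' median was 0.09 without the first of these libraries. When the 4 H69M libraries numbered 2 were dropped, a setting chosen after seeing the data, CA9 (log2 -4.22, adjusted p = 0.0320) and ALDOC (log2 -2.91, adjusted p = 0.0431) passed in polysomal RNA, where 0.314% of the 24539 genes tested in that fit were called lower, against 0.0346% with all libraries. When the libraries numbered 1 were dropped, the same genes had log2 0.54 and 0.29.

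In H69M cytoplasmic RNA the enzymes and the other targets pointed apart, with medians of 0.34 and -0.40 against 0.00 over all genes. TPI1 was at 1082 and 546 CPM in sheIF6, against 436 and 497 in shNTC (log2 0.80, SE 0.29, adjusted p = 0.344). GPI was at 521 and 342 CPM, against 281 and 275 (log2 0.63, SE 0.28, adjusted p = 0.429). Both sheIF6 libraries were above both controls for TPI1 and GPI, and the library numbered 1 was the higher of the sheIF6 pair. VEGFA was at 115 and 53.9 CPM, against 491 and 79.1 (log2 -1.76, SE 0.99, adjusted p = 0.548). HIF1A was at 249 and 407 CPM, against 575 and 544 (log2 -0.77, SE 0.28, adjusted p = 0.353), and EPAS1 at 9.78 and 9.34, against 33.1 and 14.7 (log2 -1.32, adjusted p = 0.531). Both HIF alpha subunits had sheIF6 libraries below the controls, while VEGFA overlapped. This order, sheIF6 below shNTC, held for 7 members (19.3% of all genes), and the opposite for 4 (20.4%). The enzymes' median was -0.07 without H69M sheIF6 cytoplasmic replicate 1, and that of the other targets 0.09 without H69M shNTC cytoplasmic replicate 1. TPI1 passed (log2 1.32, adjusted p = 0.0338) when the libraries numbered 2 were dropped (a fit that called 1.7% of genes higher, against 0.0909% with all libraries), and had log2 0.14 when those numbered 1 were.

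H69 gave smaller values. The medians over the enzymes and the other targets were -0.10 and -0.22 in polysomal RNA and -0.04 and -0.22 in cytoplasmic RNA. Each turned positive without H69 shNTC replicate 1 of its fraction (0.16, 0.21, 0.11 and 0.24). Of the enzymes, log2 values ran from -0.56 to 0.13 in polysomal and from -0.32 to 0.16 in cytoplasmic RNA, with HK2 the lowest in both. LDHA was at 4214 and 3435 CPM in sheIF6 polysomal RNA, against 5306 and 2878 in shNTC (log2 -0.10, SE 0.37), with overlapping libraries. EPAS1 was the exception in cytoplasmic RNA, at 0 and 0.0815 CPM in sheIF6, against 1.27 and 0.560 in shNTC (log2 -4.40, SE 1.04, adjusted p = 0.609; DESeq2 adjusted p = 0.0043). Library 1 of H69 shNTC cytoplasmic RNA also held most of the H69 counts of VIM (17.9 and 0.12 CPM in libraries 1 and 2) and AXL (0.878 and 0 CPM), markers of H69M, and the only H69 counts of SLC2A3. CD44 and REST were also higher in library 1 than in library 2, while KRT17 had 0 counts in both. YAP1 had 24 and 0 counts in libraries 1 and 2, and 30 and 26 in the H69 sheIF6 cytoplasmic libraries. Library 2 of H69 shNTC cytoplasmic RNA, with 6 VIM and 0 AXL counts, held 28 EPAS1 counts. The part of H69M marker RNA in the EPAS1 value was not tested.

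**Figure D4:**
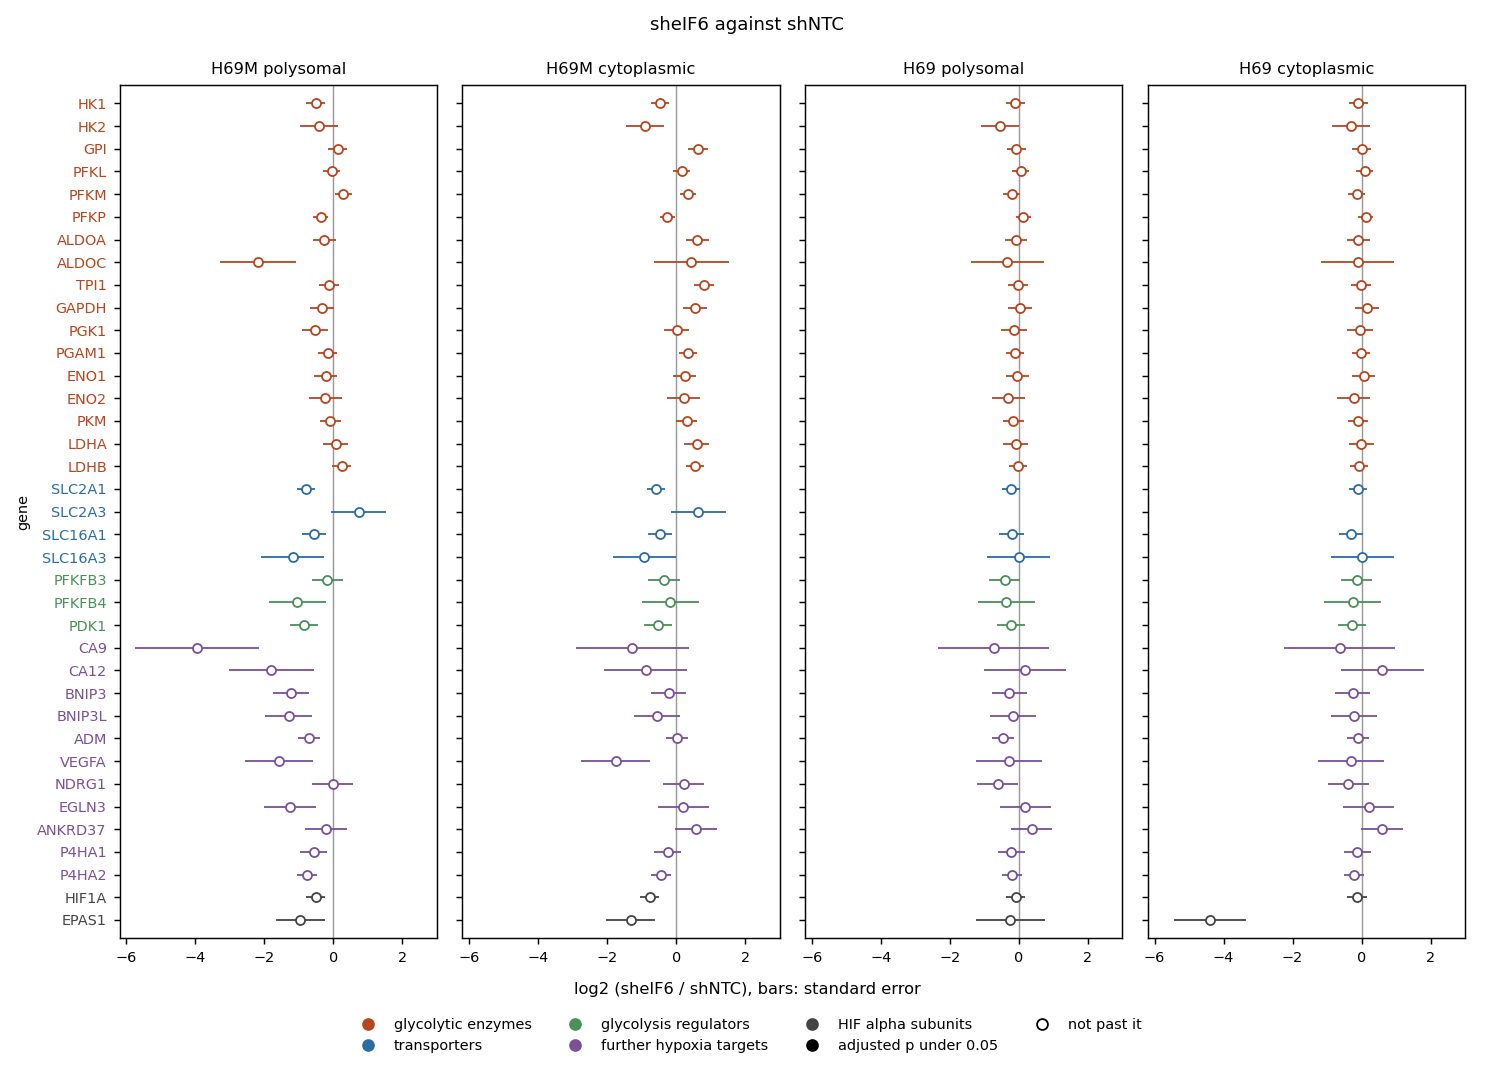
Log2 change of each member under EIF6 knockdown, sheIF6 over shNTC, in 2 lines and 2 fractions; bars are the standard error of the fit. No point is filled, since none passed the adjusted limit of 0.05, and SLC2A3 is left out in H69. In H69M polysomal RNA 32 of 37 points lie left of 0, with CA9 at the far left.

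Polysome loading itself did not change detectably under knockdown. The change of loading had medians of -0.47 over the enzymes and -0.33 over the other targets in H69M, and of -0.08 and -0.06 in H69. No gene of the 23100 passed in either line in edgeR (0%), with 1 member in each at an unadjusted p under 0.05 and 0 members called by DESeq2. In H69M 16 of 17 enzymes had negative values, from -2.63 for ALDOC, and -0.93 (SE 0.41) for TPI1, -0.89 (SE 0.49) for GAPDH and -0.88 (SE 0.47) for ALDOA. The sign depended on the libraries numbered 1. When these were dropped in H69M, 15 of the 17 enzymes had positive values, with a median of 0.34 (GAPDH 0.44, ALDOA 0.36, TPI1 -0.01), and when those numbered 2 were dropped the median was -1.11 (GAPDH -2.18, ALDOA -1.93, TPI1 -1.62). The other targets' median was 0.02 and -0.84 in the same fits, and 0.34 without H69M shNTC polysomal replicate 1 alone. The enzymes' median was -0.09 without H69M sheIF6 cytoplasmic replicate 1. The knockdown change was also compared between lines, and 0 members differed in cytoplasmic RNA (0.0303% of genes called) or in polysomal RNA (0.00433%) in edgeR, with 2 and 0 at an unadjusted p under 0.05 and 0 called by DESeq2.

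The third comparison sets H69M against H69 in shNTC libraries, and here members changed in both directions. Glucose transporters, HIF alpha subunits, ADM and the collagen prolyl hydroxylases were higher in H69M, and LDHA, GPI, BNIP3 and NDRG1 were lower. In polysomal RNA 8 members were higher and 6 lower, where 18.4% and 15.6% of all genes were called. In cytoplasmic RNA 8 were higher and 5 lower, where 16.2% and 14.1% were. The shares of the members, 37.8% in polysomal and 35.1% in cytoplasmic RNA, were close to the 34% and 30.2% of all genes called in either direction.

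Among the transporters, SLC2A1 had 478 and 503 CPM in H69M polysomal RNA, against 131 and 83.0 in H69 (log2 2.20, SE 0.28, adjusted p = 9.56e-05). In cytoplasmic RNA it had 245 and 256 CPM in H69M, against 68.4 and 50.2 in H69 (log2 2.08). The H69M libraries lay far above the H69 ones in both fractions. SLC2A3, a glucose transporter best known from neurons, had 56.4 and 33.4 CPM in H69M polysomal RNA and 0 counts in both H69 libraries, which makes it at least 1173-fold higher against a floor of 3 counts over the group (0.0383 CPM). In cytoplasmic RNA it had 37.4 and 22.4 CPM in H69M, against 0.371 and 0 in H69 (log2 7.30, adjusted p = 0.00143), the H69 value being the 19 counts of library 1. SLC16A3, the lactate exporter, was at 242 and 63.2 CPM in H69M polysomal RNA, against 115 and 38.6 (log2 0.99, adjusted p = 0.435). With the block its adjusted p was 0.0101, but between lines that fit compares levels fitted for the libraries numbered 1. The sign of SLC16A3 turned to log2 -0.29 without H69M shNTC polysomal replicate 1.

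The HIF alpha subunits were higher in H69M. HIF1A had 344 and 279 CPM in H69M polysomal RNA, against 126 and 82.3 in H69 (log2 1.58, SE 0.29, adjusted p = 0.00124). In cytoplasmic RNA it had 575 and 544 CPM in H69M, against 144 and 152 in H69 (log2 1.92, adjusted p = 0.000345). Neither pair overlapped. EPAS1 had 32.6 and 16.9 CPM in H69M polysomal RNA, against 0.0526 and 0.297 in H69 (log2 7.11, adjusted p = 0.000172), and 33.1 and 14.7 CPM in cytoplasmic RNA, against 1.27 and 0.560 (log2 4.70). The H69 values rest on 2 and 12 counts in polysomal and 65 and 28 counts in cytoplasmic RNA.

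Of the further targets, ADM, a vasodilator peptide, had 186 and 99.7 CPM in H69M polysomal RNA, against 21.3 and 15.8 in H69 (log2 2.95, SE 0.34, adjusted p = 4.41e-05). P4HA2 had 242 and 186 CPM, against 40.8 and 23.1 (log2 2.74, SE 0.31, adjusted p = 3.82e-05). Their cytoplasmic values were log2 3.15 and 2.69, and both had the H69M libraries above the H69 ones in both fractions. P4HA1, the other alpha subunit, had 146 and 157 CPM, against 90.8 and 42.7 (log2 1.18, adjusted p = 0.0344). The P4HA1 call was lost without H69 shNTC polysomal replicate 2 (log2 0.74) or H69M shNTC polysomal replicate 1 or 2 (1.22 and 1.13), and in cytoplasmic RNA without H69 shNTC replicate 2 (0.93) or H69M shNTC replicate 2 (0.75).

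Lower in H69M were NDRG1, a stress-induced gene, with 36.4 and 20.5 CPM in polysomal RNA, against 232 and 103 in H69 (log2 -2.56, SE 0.64, adjusted p = 0.009). BNIP3 had 55.8 and 18 CPM, against 131 and 75.7 (log2 -1.49, SE 0.52, adjusted p = 0.0425). PDK1 passed in cytoplasmic RNA, with 12 and 6.46 CPM, against 29.2 and 22.3 (log2 -1.48, SE 0.41, adjusted p = 0.0165). The groups did not overlap for these 3 genes, and the calls were lost without H69M shNTC replicate 2 of the fraction (NDRG1 log2 -2.21, BNIP3 -0.89, PDK1 -1.11) or H69 shNTC replicate 1 (-1.86, -1.04 and -1.27). BNIP3 also missed the limit in 6 fits without a library of another group (adjusted p at most 0.0607). In cytoplasmic RNA NDRG1 (log2 -2.10) and BNIP3 (-1.94) lost their calls without H69 shNTC cytoplasmic replicate 1 (-1.42 and -1.43) or H69M shNTC cytoplasmic replicate 2 (-1.76 and -1.70), and NDRG1 also without H69M shNTC cytoplasmic replicate 1 (-2.56). VEGFA was at 451 and 71.2 CPM in H69M polysomal RNA, against 180.4 and 70.7 (log2 1.06, adjusted p = 0.429), and log2 -0.83 without H69M shNTC polysomal replicate 1. In cytoplasmic RNA its log2 1.10 likewise turned to -0.74 without H69M shNTC cytoplasmic replicate 1. With the block the adjusted p of VEGFA was 0.0178 and 0.0205 in turn, for levels fitted for the libraries numbered 1. CA9 spanned 196 and 1.56 CPM in H69M, against 79.4 and 51.6 in H69, so the groups overlapped.

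Of the enzymes called between the lines, LDHA, LDHB, TPI1 and GPI were lower in H69M polysomal RNA and PFKP was higher. LDHA had 977 and 1032 CPM in H69M polysomal RNA, against 5306 and 2878 in H69 (log2 -2.03, SE 0.38, adjusted p = 0.00151). In cytoplasmic RNA it had 449 and 715 CPM, against 1838 and 1115 (log2 -1.34, adjusted p = 0.0162), a call lost without H69 shNTC or H69M shNTC cytoplasmic replicate 1 (log2 -0.94 and -1.04). PFKP had 643 and 523 CPM in H69M polysomal RNA, against 238 and 230.0 (log2 1.32, SE 0.22, adjusted p = 0.000579). PFKP was the 1 enzyme called higher in H69M, in both fractions (log2 1.11 in cytoplasmic RNA). LDHB had 546 and 543 CPM in H69M polysomal RNA, against 1390.0 and 1088 (log2 -1.19, adjusted p = 0.00441), TPI1 had 1076 and 777 CPM, against 2017 and 1950.4 (log2 -1.10, adjusted p = 0.0113), and GPI had 890.0 and 569 CPM, against 1638 and 1186 (log2 -0.95, adjusted p = 0.0196). These 3 did not overlap between lines. The GPI call was lost without H69 shNTC polysomal replicate 1 (log2 -0.70) or H69M shNTC polysomal replicate 2 (-0.67), and the TPI1 call without the second of these (-0.88). Of them GPI also passed in cytoplasmic RNA (log2 -1.13, adjusted p = 0.00849), but not without H69 shNTC cytoplasmic replicate 1 (-1.05). GAPDH was at 8675 and 6479.9 CPM in H69M polysomal RNA, against 12598 and 10795 (log2 -0.63), and at 4190.0 and 5212 CPM in cytoplasmic RNA, against 3648 and 3106 (log2 0.48). It passed in neither, and the 2 fractions had opposite signs.

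**Figure D5:**
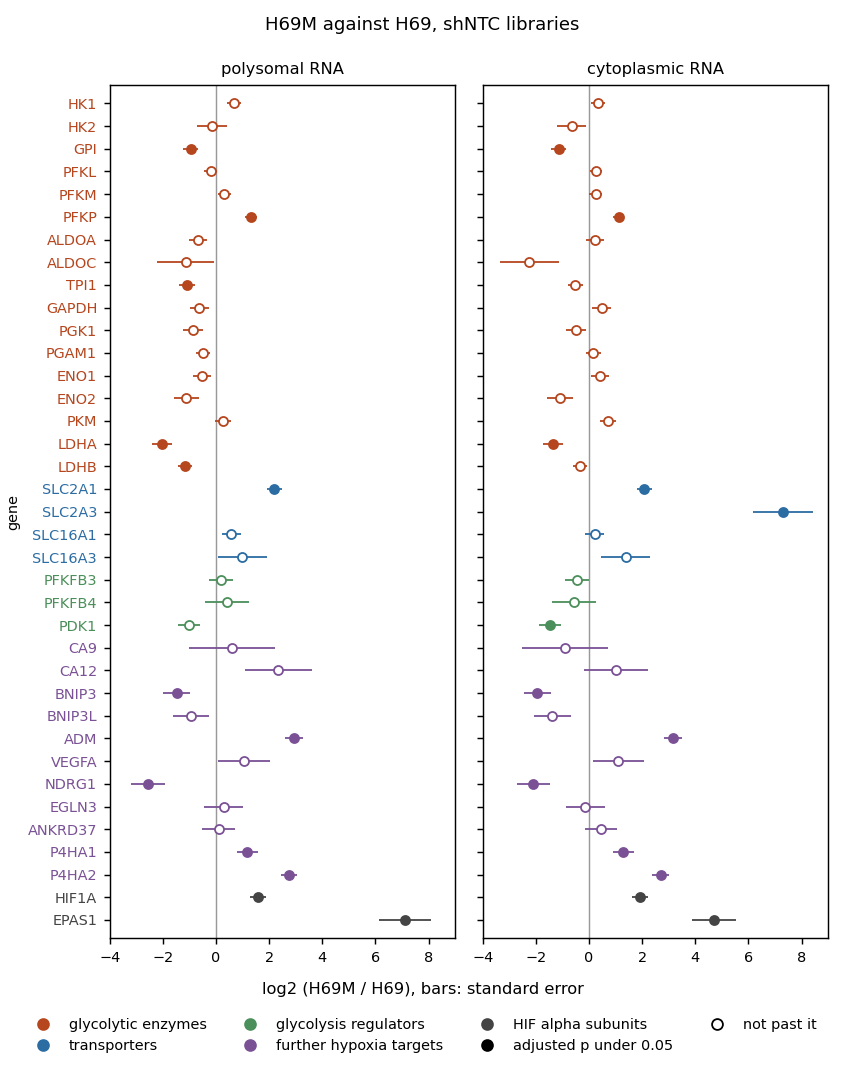
Log2 ratio of H69M to H69 in shNTC libraries for each member, polysomal RNA on the left and cytoplasmic RNA on the right; bars are the standard error of the fit and filled points passed the adjusted limit of 0.05. SLC2A3 is left out in polysomal RNA, where H69 had 0 counts. SLC2A1, ADM, P4HA2, HIF1A and EPAS1 lie to the right in both fractions, and LDHA, BNIP3 and NDRG1 to the left.

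Isoform shares, computed per kilobase of exon within a library, are given as a description, with no test. Length counts all annotated exons of a gene (LDHA 6210 bases, LDHB 2983), which can exceed the transcripts expressed. The size of a share rests on these lengths. Without them LDHA averaged 1005 CPM and LDHB 545 CPM in H69M shNTC polysomal RNA. The shares are thus for comparing groups, not for ranking isoforms. LDHA made up 47.0 ± 1.08% of LDHA and LDHB in H69M shNTC polysomal RNA, against 60.3 ± 6.19% in H69 (mean ± SD, n = 2 libraries). PFKP made up 71.7 ± 0.152% of the 3 phosphofructokinases in H69M, against 50.1 ± 4.15% in H69. The pairs of libraries did not overlap for either enzyme. HK2 made up 30.9 ± 9.84% of HK1 and HK2 in H69M, against 44.3 ± 6.27% in H69, and ENO2 5.85 ± 1.88% of the enolases in H69M, against 9.39 ± 3.89% in H69. HK2 did not overlap, ENO2 did. SLC2A3 made up 16.7 ± 9.40% of SLC2A1 and SLC2A3 in H69M sheIF6 polysomal RNA, against 6.57 ± 2.45% in H69M shNTC, with 23.4 and 10.1% in the sheIF6 libraries and 8.30 and 4.84% in the shNTC ones.

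Calls between the lines in the wider pathway lists stand beside 18.4% of all genes called higher and 15.6% lower in H69M polysomal RNA, and 16.2% and 14.1% in cytoplasmic RNA. Among genes averaging at least 100 CPM these shares were 22.9% and 27.2%, and 20.2% and 14.2%. Of 26 further HIF targets tested, 9 were higher and 2 lower in H69M polysomal RNA, and 9 higher and 4 lower in cytoplasmic RNA. BHLHE41, a repressor of the circadian clock family, was at 16.9 and 8.79 CPM in H69M polysomal RNA, against 0.605 and 0.247 in H69 (log2 4.91), and was also called in cytoplasmic RNA (log2 5.01). Of 14 HIF pathway regulators 4 were higher and 2 lower in polysomal RNA, led by ARNT2, a partner of HIF alpha, at 98.6 and 67.9 CPM, against 10.7 and 27.0 (log2 2.14). The H69M libraries lay above the H69 ones for both BHLHE41 and ARNT2. Of 16 cycle genes 1 was higher and 6 lower in polysomal RNA (OGDH log2 1.09, MDH2 -1.52). Of the 12 pyruvate genes 1 was higher and 4 lower in polysomal RNA, and 2 higher and 1 lower in cytoplasmic RNA. In cytoplasmic RNA 3 of 7 pentose phosphate genes were higher in H69M and 1 lower, of 11 other isoforms 1 was higher and 0 lower in polysomal and 1 and 1 in cytoplasmic RNA, and of 5 gluconeogenesis genes 0 passed in either.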

How the data were processed

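RNA sequencing counts per gene, as deposited by the authors, were analysed for 16 libraries (8 groups of 2). STAR, HTSeq and GRCh38 are named per the submitters' processing notes; the strand setting is not given in the sources used here, so reads of overlapping genes on opposite strands may not be told apart. Totals per library ran from 36005326 to 87269772 counts. The members and the gene lists were chosen with earlier results of these data known.

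Genes were kept with edgeR's filterByExpr (minimum count 10), scaled with TMM and fitted with edgeR 4.0.16 (glmQLFit, glmQLFTest, robust; R 4.3.3) as 8 group means over all 16 libraries with 8 residual degrees of freedom. P-values were adjusted by Benjamini-Hochberg over 23100 genes, with a limit of 0.05, and standard errors are the log2 change over the root of F. Gene positions and exon lengths came from the GRCh38 annotation, promoters from RefSeq GRCh38.p14. All members are named, with values per library for those past the limit, up to 10 a comparison, and for the HIF alpha subunits; other genes were named for the comparison at hand after values were seen, and of each pathway list at most the 2 largest changes.

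Same-numbered libraries deviated together within a line (correlation of deviations 0.168 to 0.280 in H69 and 0.172 to 0.578 in H69M, 6 pairs each) and not between lines (-0.107 to 0.0457, 16 pairs), so the numbers were taken to pair libraries within a line. Alternatives were a replicate block within each line, DESeq2 1.42.0, RLE or library-size scaling, no filter or a stricter one (50 counts in 2 libraries), and leaving out each library in turn, where the library left in a group was given the spread of the remaining groups. Dropping the H69M libraries numbered 1 or 2 was added after seeing the data. It leaves 1 library in each H69M group, so only log2 values are given for it. The fitting code was tested on simulated data. Some results for genes of the pathway lists are not reported here.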

Additional observations from a re-analysis of the deposited data

How the results depend on the processing

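With the replicate block within each line, members called for polysome loading numbered 6 in H69M sheIF6, 15 in H69M shNTC, 17 in H69 sheIF6 and 22 in H69 shNTC, against 1, 2, 11 and 12 without it. The pairing moved no other count of members past 1.5 times. Between the lines the block fit compares levels fitted for the libraries numbered 1, so its counts there are not a paired test of the lines.

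Loading calls among the members in H69M shNTC numbered 4 with RLE scaling, 4 with the stricter filter and 12 with DESeq2. Of all genes, RLE scaling called 608 higher and 504 lower there, against 498 and 587 in the main fit. In H69M sheIF6 the members called numbered 0 with library size only, 0 with no filter and 6 with DESeq2. Library size only called 268 of all genes higher and 832 lower there, against 442 and 521 in the main fit. The DESeq2 shares of all genes are given above, and those of the other filters were not computed. For knockdown, DESeq2 called 1 member in H69 cytoplasmic RNA. With library size only, the enzymes' median loading was 0.62 in H69M shNTC, 1.04 in H69 sheIF6 and 1.11 in H69 shNTC. With the libraries numbered 1 dropped it was 1.03 in H69M sheIF6, and the knockdown medians were -0.059 in H69M cytoplasmic and 0.30 in H69M polysomal RNA. The cause of these shifts was not tested.

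Leaving out 1 library at a time, loading calls ran from 0 to 1 in H69M sheIF6, 0 to 3 in H69M shNTC, 0 to 12 in H69 sheIF6 and 0 to 14 in H69 shNTC; calls between the lines ran from 8 to 14 in cytoplasmic and 10 to 17 in polysomal RNA. The share of all genes called in these fits was not computed, so the ranges show only how stable the calls were. The enzymes' median ran from 1.23 to 1.49 for loading in H69 sheIF6, 1.17 to 1.68 for loading in H69 shNTC, -0.068 to 0.61 for knockdown in H69M cytoplasmic and -0.19 to 0.11 for knockdown in H69 cytoplasmic RNA. Signs turned for PFKFB4 loading in H69M shNTC (-0.30 without polysomal replicate 1, at most 2.73), SLC2A3 loading in H69 shNTC (0 without cytoplasmic replicate 1, otherwise down to -7.12), VEGFA between lines in cytoplasmic RNA (-0.74 without H69M replicate 1, -0.71 with the libraries numbered 1 dropped, at most 1.88) and polysomal RNA (-0.83 and -0.87, at most 1.89), and SLC16A3 in polysomal RNA (-0.29 and -0.34, at most 1.99). With 2 libraries a group and wide spread in H69M, knockdown changes were hard to detect, and not only small ones. EIF6 RNA, at 42.4% of control in H69M polysomal and 55.9% in H69 polysomal RNA, did not pass in edgeR. The lack of called members therefore does not exclude large changes.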
